A study of Mus musculus with 24 samples.

Results

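Cardiomyocytes of mice with a cardiac deletion of Top2b were compared with cardiomyocytes of wild-type (WT) mice, both 72 h after doxorubicin (Dox). The comparison rests on 6 of the 24 arrays of the series, 3 of Top2b-deleted Dox cells and 3 of WT Dox cells, chosen by their sample titles and paired by the replicate numbers 2, 3 and 4. Per the labels, the mice were male, 6 weeks old and of mixed 129SvEv/C57BL/6 background. Dox mice had 1 intraperitoneal dose of 25 mg/kg, and PBS mice had the buffer alone by the same route. The labels call the deletion a conditional knockout in cardiomyocytes and do not name the promoter or the Cre that drives it. Cells were isolated alive on a Langendorff apparatus, so each array reports on the cells that survived both the treatment and the isolation. The 6 PBS arrays of the same time, 3 Top2b-deleted and 3 WT, are given beside the Dox values, and the 6 Dox arrays of 16 h are used in places.

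Top2b encodes DNA topoisomerase II beta, which passes one DNA duplex through a transient break in another. It is the form of topoisomerase II that non-dividing cells such as adult cardiomyocytes keep, whereas the alpha form, encoded by Top2a, belongs to dividing cells. Dox is an anthracycline that traps type II topoisomerases on cut DNA, and damage to the heart limits its use in cancer treatment. The comparison of both treated genotypes asks how cells of mice with the deletion differ from WT cells once both have met the drug. Whether a difference was already there without the drug can be read from the PBS arrays.

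All levels are log2 of the array signal minus the 75th percentile of that array, so 0 is a fairly bright probe and each unit is a doubling. Differences are Top2b-deleted minus WT, with SE and n = 3 arrays per group, from limma with the replicate number as a block, and adjusted p-values follow Benjamini and Hochberg over all genes with a threshold of 0.05. The 75th percentile of the 6 Dox arrays lay between 190.4 and 244.7 units, with 47.5% to 52.6% of spots well above background and 0 saturated. Correlations over genes were 0.966 to 0.983 within Top2b-deleted Dox, 0.971 to 0.981 within WT Dox and 0.941 to 0.964 between them. Nothing in the labels ties an array to an animal of its own, and the spread behind each p-value may therefore be technical. Xist, the transcript of the inactive X chromosome, was well above background on all 6 Dox arrays, and Ddx3y, a Y-linked gene, was on none of them, although the labels say male. On the PBS side, Ddx3y was well above background on Top2b-deleted replicate 3 and WT replicate 4. Eif2s3y, another Y-linked gene, was well above background on WT Dox replicates 2 and 4, at -2.33 and -2.59. The same held for Top2b-deleted Dox replicates 3 and 4, at -3.25 and -2.92. On the PBS arrays with Ddx3y, Eif2s3y read 3.36 in Top2b-deleted and 3.31 in WT cells.

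Top2b itself was checked first. Its probe (mm9 chr14:17263157-17263216, plus strand) read 3.08, 2.56 and 2.13 on the Top2b-deleted Dox arrays of replicates 2, 3 and 4, against 3.41, 3.25 and 3.31 on the WT Dox arrays. The groups did not overlap, yet the gene stayed well above background on every Top2b-deleted array, at 60.1% of the WT level. The difference was -0.74 ± 0.18 (limma, adjusted p = 0.0274), and an exact two-sided permutation test gave p = 0.10, the smallest that 3 against 3 arrays allow. It did not pass without the block (adjusted p = 0.0724), nor when any 1 replicate pair was left out (adjusted p of 0.0737, 0.182 and 0.112 without replicates 2, 3 and 4). In PBS the difference was -1.10 ± 0.18 (limma, adjusted p = 0.0143). Which exon the probe lies in, and whether the deletion covers it, was not determined. Of 8 topoisomerase list genes 7 were tested, and 2 fell and 0 rose, beside 8.52% and 10.7% of all genes. The 2 were Top1mt and Top2b, the targeted gene, whose fall is not read against that share. Top1mt, the mitochondrial type I enzyme, differed by -0.46 ± 0.11 (limma, adjusted p = 0.0285). Top1, the nuclear type I enzyme, differed by 0.46 (limma, adjusted p = 0.0588), Top3a by -0.24, Top3b by -0.41, and the repair enzymes Tdp1 and Tdp2, which clear trapped topoisomerases, by -0.19 and 0.32.

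A probe for Esr1 was high on every Top2b-deleted array and on some WT arrays. Its sequence codes for part of the ligand-binding domain of estrogen receptor alpha, a domain that tamoxifen-inducible Cre proteins also carry, and it is printed for that reason without capitals (mm9 chr10:5489352-5489411, minus strand as the array files give it).
Esr1 probe: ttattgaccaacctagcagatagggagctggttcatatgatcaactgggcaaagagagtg
It read 5.24, 5.93 and 6.35 on the Top2b-deleted Dox arrays, against 6.62, -2.06 and -4.34 on the WT Dox arrays. All Top2b-deleted arrays were high, and of the WT Dox arrays replicate 2 was as high as they were. The difference of 5.77 ± 3.28 did not pass (limma, adjusted p = 0.246). On the PBS arrays it read 6.89, 6.70 and 7.10 in Top2b-deleted cells, against 8.41, 8.58 and -6.18 in WT cells, so WT PBS replicates 2 and 3 were high as well. The other Esr1 probes were above background on none of the 12 arrays. The Top2b level of WT Dox replicate 2 was the highest of the WT Dox group, whereas WT PBS replicates 2 and 3, at 3.63 and 3.35, lay below WT PBS replicate 4, at 3.65. Whether these WT arrays carry the transgene was not tested, and the count of changed genes without WT Dox replicate 2 is given with the main count.

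Of 19672 genes tested, 3776 passed the threshold between Top2b-deleted Dox and WT Dox cells (19.2%), with 2100 higher (10.7%) and 1676 lower (8.52%). Larger changes were mostly falls: 460 genes were at least 2-fold higher and 1147 at least 2-fold lower. The median difference over all genes was 0.08, and with each array centred on its median instead it was 0.18, which left 4234 genes past the threshold, 67.9% of them higher, against 55.6% in the main scaling. Groups did not overlap for 5234 genes (26.6%), 3124 higher (15.9%) and 2110 lower (10.7%). Without the replicate block 1554 genes passed, 836 higher and 718 lower. The count was 919, 243 and 1197 without the pairs of replicates 2, 3 and 4. Leaving out Top2b-deleted replicate 3 or 4 gave 1261 or 1417 genes, leaving out WT replicate 3 gave 1341, and leaving out WT replicate 2, the array with Esr1 signal, gave 2594. With only the 6 Dox arrays in the fit 768 genes passed, 205 higher and 563 lower. Falls also outnumbered rises without the pair of replicate 3 (75 higher and 168 lower) and without that of replicate 4 (384 and 813), so which direction holds more calls depends on the arrays in the fit.

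Fewer genes passed between the same genotypes in PBS. In PBS 893 genes passed (4.54%), 458 higher (2.33%) and 435 lower (2.21%). That count was 418 without the block, 202 without the 2 arrays with Ddx3y signal, and 81, 72 and 584 without the pairs of replicates 2, 3 and 4. Of the 893, 634 were also past the threshold under Dox, and 630 of them had the same direction, which is 16.7% of the Dox calls and 70.5% of the PBS calls. Over all genes the median size of the difference was 0.29 under Dox and 0.20 in PBS. Of the genes past the threshold under Dox, 3198 of 3776 (84.7%) had the same sign in PBS, beside 65.0% of all genes. Of the 1607 genes past a 2-fold difference under Dox, 411 were also called in PBS and 592 had a PBS difference of under 0.5 in size. In the test of the difference between both genotype effects, 0 genes passed after adjustment with limma and 2913 had an unadjusted p under 0.05 (14.8%), 1548 of them among the Dox calls. A genotype difference under Dox is therefore given with its PBS value throughout, and no gene is called specific to Dox.

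**Figure D1:**
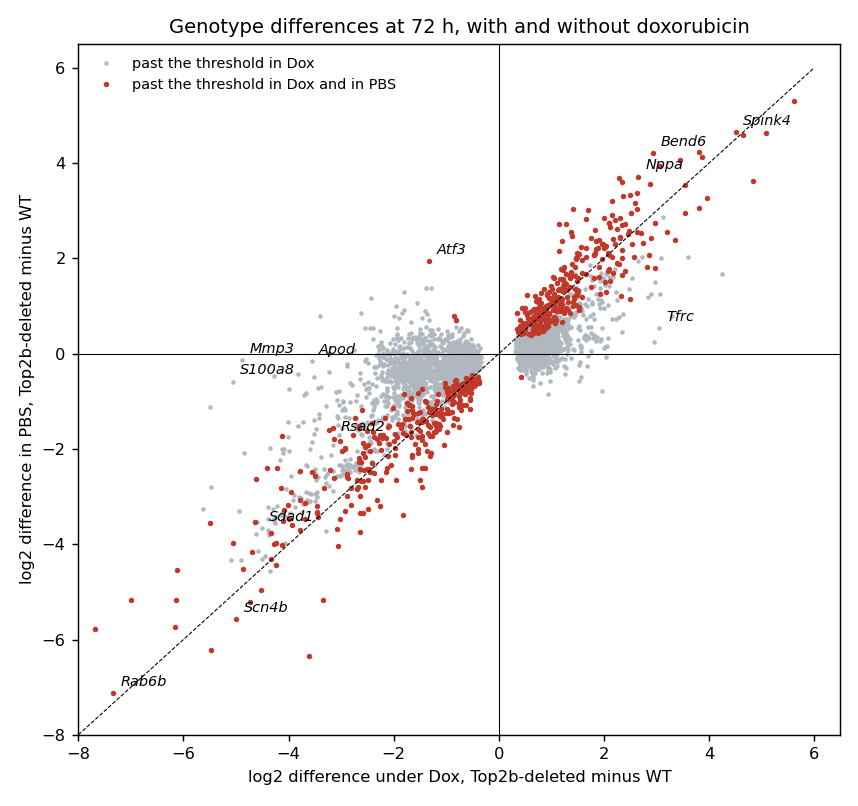
Log2 difference between Top2b-deleted and WT cells under Dox (horizontal axis) and in PBS (vertical axis) at 72 h for the 3776 genes past the threshold under Dox, with those also past it in PBS in red and the line of equal differences dashed. Rab6b and Scn4b lie near the dashed line, whereas S100a8, Mmp3 and Apod lie near a PBS difference of 0.

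The named changes at the far ends were largely shared with PBS. Among the 15 largest rises and 15 largest falls measured on every Dox array, 18 of 30 also passed in PBS in the same direction. Scn4b, a regulatory subunit of the cardiac sodium channel (mm9 chr9:44962045-44962104, plus strand), read -2.90, -2.58 and -2.12 in Top2b-deleted Dox cells, against 2.39, 2.82 and 2.18 in WT Dox cells. The groups were far apart, and the difference of -5.0 ± 0.32 (limma, adjusted p = 0.000216) stood beside -5.57 ± 0.32 in PBS. Rab6b, a small GTPase of vesicle transport, was not well above background on any Top2b-deleted Dox array and read 2.39, 2.42 and 1.93 on the WT Dox arrays. It was at least 74.3-fold lower in the Top2b-deleted cells, a bound that sets the brighter group against the detection limit of the dimmer arrays, and its PBS difference was -7.12. Other falls with a like difference in PBS were Fbxo44, part of a ubiquitin ligase (-4.24 under Dox and -4.44 in PBS), Pttg1, the securin that guards chromosome separation (-4.24 and -3.97), Stbd1, which binds glycogen (-3.69 and -3.14), and Rbbp9 (-3.68 and -3.47). For Rbbp9 a second probe differed by only -0.03, so its probes disagree.

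Rises of this kind were led by Spink4, a member of the Kazal-type protease inhibitor family. It read 0.98, 2.34 and 4.36 in Top2b-deleted Dox cells, against -2.0, -2.38 and -1.46 in WT Dox cells. The groups did not overlap, and the differences were 4.51 ± 0.57 under Dox (limma, adjusted p = 0.00357) and 4.66 in PBS. The remaining largest rises that also passed in PBS were Pard6g, a cell polarity gene (3.35 under Dox and 2.39 in PBS), Slitrk4 (2.98 and 1.8), Bend6 (2.94 and 4.22), Wdfy1 (2.89 and 2.42), Wdr92 (2.88 and 3.56), Mxd1, a MAX-binding repressor (2.86 and 2.06), Cacna1g, the T-type calcium channel Cav3.1 (2.82 and 1.82), Hddc3 (2.73 and 2.33), Nppa (2.65 and 3.72), Tmem51 (2.63 and 3.04), Sdc4, a cell-surface heparan sulfate proteoglycan (2.62 and 2.55), and Spry2, an inhibitor of receptor tyrosine kinase signalling (2.53 and 2.31). Second probes of Wdr92 and Mxd1 differed by -0.16 and 0.22, and the 3 other probes of Wdfy1 by -0.16 to 3.74, so these genes' probes disagree.

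The other 12 of the 30 did not pass in PBS, and their PBS differences ranged widely. Apod, the lipid carrier apolipoprotein D, read -0.69, -0.62 and 0.09 in Top2b-deleted Dox cells, against 2.01, 4.11 and 3.34 in WT Dox cells. The groups did not overlap, with a difference of -3.56 ± 0.43 (limma, adjusted p = 0.0032) under Dox and -0.15 ± 0.43 in PBS, where the adjusted p was 0.889. Tfrc, the transferrin receptor that brings iron into cells, read -0.24, 2.27 and 1.79 in Top2b-deleted Dox cells, against -1.74, -2.17 and -1.41 in WT Dox cells, and here the Top2b-deleted cells were higher. Its difference was 3.05 ± 0.52 under Dox (limma, adjusted p = 0.00866) and 0.53 ± 0.52 in PBS. Plekha7, a component of adherens junctions, rose by 2.83 under Dox and differed by 1.2 in PBS, which did not pass. The remaining largest falls were Gsta1 and Gsta2, at -2.04 and -1.99 in PBS, which are described with the antioxidant genes, and 7 genes whose probes hold a repeat, at -3.78 to -2.94 in PBS.

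Those 7 genes were Cftr, Sdad1, Notch1, Pnma2, Pinx1, Akap7 and Slc16a7, which fell by 3.58 to 4.61. The brightest kept probe of each of them, which stood for the gene, holds at least 3 GAA units in a row. Their probes are shown to make the shared run visible, with the repeat in capitals and positions in mm9.
Notch1, chr2:26319440-26319499, minus strand: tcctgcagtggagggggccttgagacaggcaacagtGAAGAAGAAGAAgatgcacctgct
Pnma2, chr14:67535939-67535998, plus strand: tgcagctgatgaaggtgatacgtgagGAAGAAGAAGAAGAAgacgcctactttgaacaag
Akap7, chr10:25003766-25003825, minus strand: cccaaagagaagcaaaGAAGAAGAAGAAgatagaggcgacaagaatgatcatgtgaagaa
Sdad1, chr5:92727219-92727278, minus strand: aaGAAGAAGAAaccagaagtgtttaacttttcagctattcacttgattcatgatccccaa
Outside the capitals these 4 sequences differ, and these 4 genes lie on different chromosomes, while Pinx1 shares chromosome 14 with Pnma2 and Slc16a7 shares chromosome 10 with Akap7.

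All 68 probes with 4 or more GAA units in a row were above background and kept, beside 48.4% of all probes, and 64 of them fell, 0 rose, with a median difference of -2.92. Their median level was 5.84, 6.48 and 6.86 on the Top2b-deleted Dox arrays, against 9.83, 9.43 and 8.33 on the WT Dox arrays. The groups did not overlap, and the gap narrowed in the pair of replicate 4. In PBS the median levels were 5.68, 5.95 and 7.06 in Top2b-deleted cells, against 9.17, 9.26 and 7.53 in WT cells, with a median difference of -2.42, and 3 of the 68 passed. With runs of exactly 3 units the median difference was -1.26 over 77 probes, with runs of exactly 2 it was 0.05 over 1127 probes, and with 3 or more units of the complement, TTC, it was 0.01 over 24 probes. Among 32 genes with such a probe and others free of the repeat, 16 fell below -1 by the repeat probe, and the other probes were below -1 for 1 of the 16. The medians over these genes were -1.07 for the repeat probes and 0.10 for the others. For Sdad1 the other probe differed by -0.02, and for Akap7 the others by -0.24 and -0.05. Repeat-bearing probes stood for 89 of the 1676 genes that fell (5.31%). For a gene with no other probe, the fall of the probe cannot be set against a second measurement. With all probes of 3 or more units left out, 3661 genes passed. What the probes bind in these samples was not tested.

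**Figure D2:**
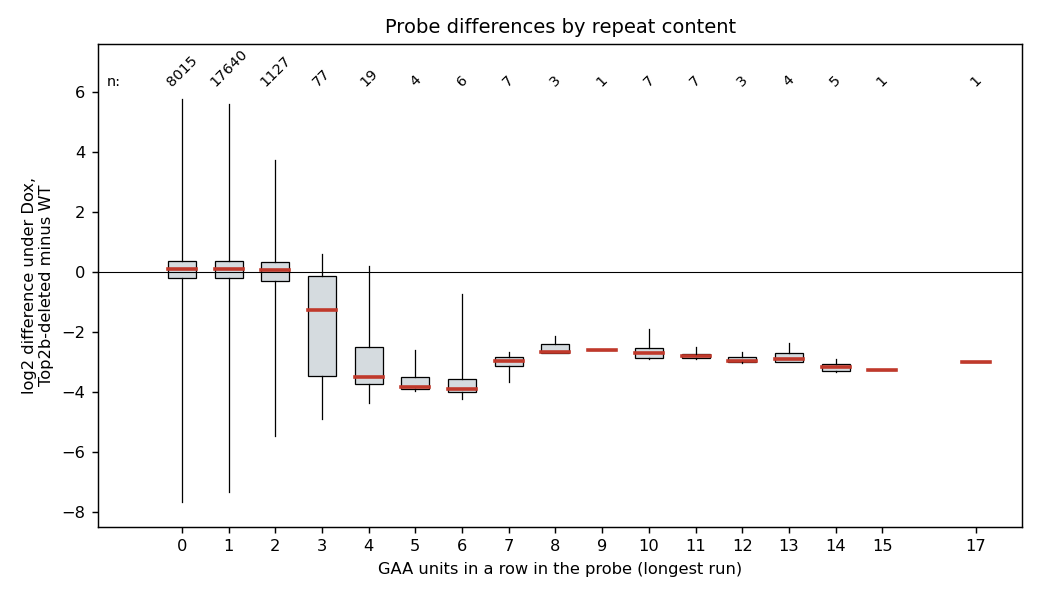
Difference under Dox, Top2b-deleted minus WT, for kept probes grouped by the longest run of GAA units, with the box from the lower to the upper quartile, the median in red, the whiskers to the lowest and highest probe, and the number of probes above. The median is 0.05 with 2 units, -1.26 with 3, and below -2.5 with every longer run.

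Interferon response genes, which cells switch on after viral or self nucleic acid is sensed and after type I or type II interferon binds, were lower. Of 32 list members tested, 23 were lower in Top2b-deleted Dox cells than in WT Dox cells and 1 was higher, beside 8.52% and 10.7% of all genes, with a median difference of -1.19. In PBS 2 were lower and 1 higher, beside 2.21% and 2.33% of all genes, with a median of -0.19. Rsad2, the antiviral enzyme viperin (mm9 chr12:27127859-27127918, minus strand), read -2.82, -2.56 and -1.71 in Top2b-deleted Dox cells, against -0.16, 0.96 and 1.55 in WT Dox cells. Isg15, the ubiquitin-like modifier, read -0.43, -0.07 and 0.21 in Top2b-deleted Dox cells, against 1.2, 1.49 and 2.21 in WT Dox cells. For both genes every WT Dox array was above every Top2b-deleted Dox array. The differences were -3.14 ± 0.26 for Rsad2 (limma, adjusted p = 0.000601) and -1.73 ± 0.21 for Isg15 (limma, adjusted p = 0.0032), and in PBS -1.79 and -0.46.

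Other falls spanned sensors, effectors and regulators of the response. Oas2 (-3.05) and Oas1a (-2.25) make the second messenger that activates RNase L, Gbp2 (-2.23) is a guanylate-binding GTPase, and Ifit3 (-2.01) belongs to the IFIT family of antiviral proteins. Irf7, the transcription factor that amplifies type I interferon, read -2.17, -2.77 and -2.24 in Top2b-deleted Dox cells, against -0.94, -0.20 and -0.43 in WT Dox cells. The groups did not overlap, with a difference of -1.87 ± 0.27 (limma, adjusted p = 0.00511) and -0.19 in PBS. Ifi35, at 0.50 ± 0.10, ran the other way and was the one member that rose, with 0.87 in PBS. The count of lower members was 12 without the block, it was 9, 5 and 11 without the pairs of replicates 2, 3 and 4, and it lay between 15 and 23 when 1 Dox array was left out.

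The promoters of 3 of these genes are shown because they hold the letters GAAA, any 2 bases and GAAA again or, on the other strand, TTTC, any 2 bases and TTTC, the core of the element that interferon-stimulated transcription factors recognise. They are the 250 bases before the gene's start from RefSeq's GRCm38.p6 table, in the direction of the gene, with each match in capitals.
Rsad2, chr12:26456453-26456702, minus strand: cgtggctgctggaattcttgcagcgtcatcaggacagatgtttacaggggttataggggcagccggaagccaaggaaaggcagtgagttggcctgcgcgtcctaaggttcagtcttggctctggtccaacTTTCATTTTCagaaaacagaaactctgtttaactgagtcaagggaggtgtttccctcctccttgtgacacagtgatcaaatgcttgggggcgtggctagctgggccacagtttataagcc
Isg15, chr4:156200819-156201068, minus strand: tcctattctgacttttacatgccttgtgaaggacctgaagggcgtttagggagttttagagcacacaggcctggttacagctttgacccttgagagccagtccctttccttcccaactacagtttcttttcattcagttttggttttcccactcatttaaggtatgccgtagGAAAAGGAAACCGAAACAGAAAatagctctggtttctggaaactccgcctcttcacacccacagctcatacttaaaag
Ifit3, chr19:34583279-34583528, plus strand: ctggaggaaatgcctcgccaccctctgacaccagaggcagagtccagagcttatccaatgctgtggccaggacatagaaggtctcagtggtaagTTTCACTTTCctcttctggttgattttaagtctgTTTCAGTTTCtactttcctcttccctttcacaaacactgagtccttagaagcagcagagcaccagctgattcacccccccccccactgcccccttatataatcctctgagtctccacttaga
The 3 overlapping matches of Isg15 run together. Of all 32851 promoters in the table, searched over 250 bases before to 50 after the start, 3.44% hold a match. Only 25 of the 32 tested list members have a promoter there, too few for a share over the list, and those of Irf7, Irf1, Oasl1 and Oasl2, which also fell, hold no match. A match is a description of the letters, and binding was not measured.

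MHC class I genes, which display peptides from inside the cell, were the next group. Of 18 tested, 12 were lower in Top2b-deleted Dox cells and 2 higher, beside 8.52% and 10.7% of all genes, with a median difference of -1.44. In PBS 0 passed either way, with a median of -0.21. Among the 17 members not kept through the WT Dox arrays alone, 11 were lower under Dox. Tap1, a subunit of the peptide transporter, read -3.80, -3.51 and -3.42 in Top2b-deleted Dox cells, against -2.48, -1.36 and -1.39 in WT Dox cells. B2m, the shared light chain, read 4.10, 3.61 and 4.52 in Top2b-deleted Dox cells, against 4.18, 5.35 and 5.98 in WT Dox cells. Tap1 did not overlap between groups, whereas for B2m WT replicate 2 lay within the Top2b-deleted range. The differences were -1.84 ± 0.26 for Tap1 (limma, adjusted p = 0.0049) and -1.09 ± 0.30 for B2m (limma, adjusted p = 0.0389). Falls were also seen for the heavy chains H2-D1 (-1.87), H2-K1 (-1.40) and H2-T10 (-1.47), the immunoproteasome subunits Psmb8 (-1.93) and Psmb9 (-2.12), and the class I transactivator Nlrc5 (-3.03). Heavy chain genes are near copies of each other, so their probes may share signal, and a second Nlrc5 probe differed by 0.29. The proteasome activator Psme1 rose (0.92 ± 0.15, limma, adjusted p = 0.00809), as did Psmb10, the third immunoproteasome subunit (0.69). The count of lower members was 4 without the block, it was 9, 0 and 6 without the pairs of replicates 2, 3 and 4, and it lay between 6 and 12 with 1 Dox array left out.

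**Figure D3:**
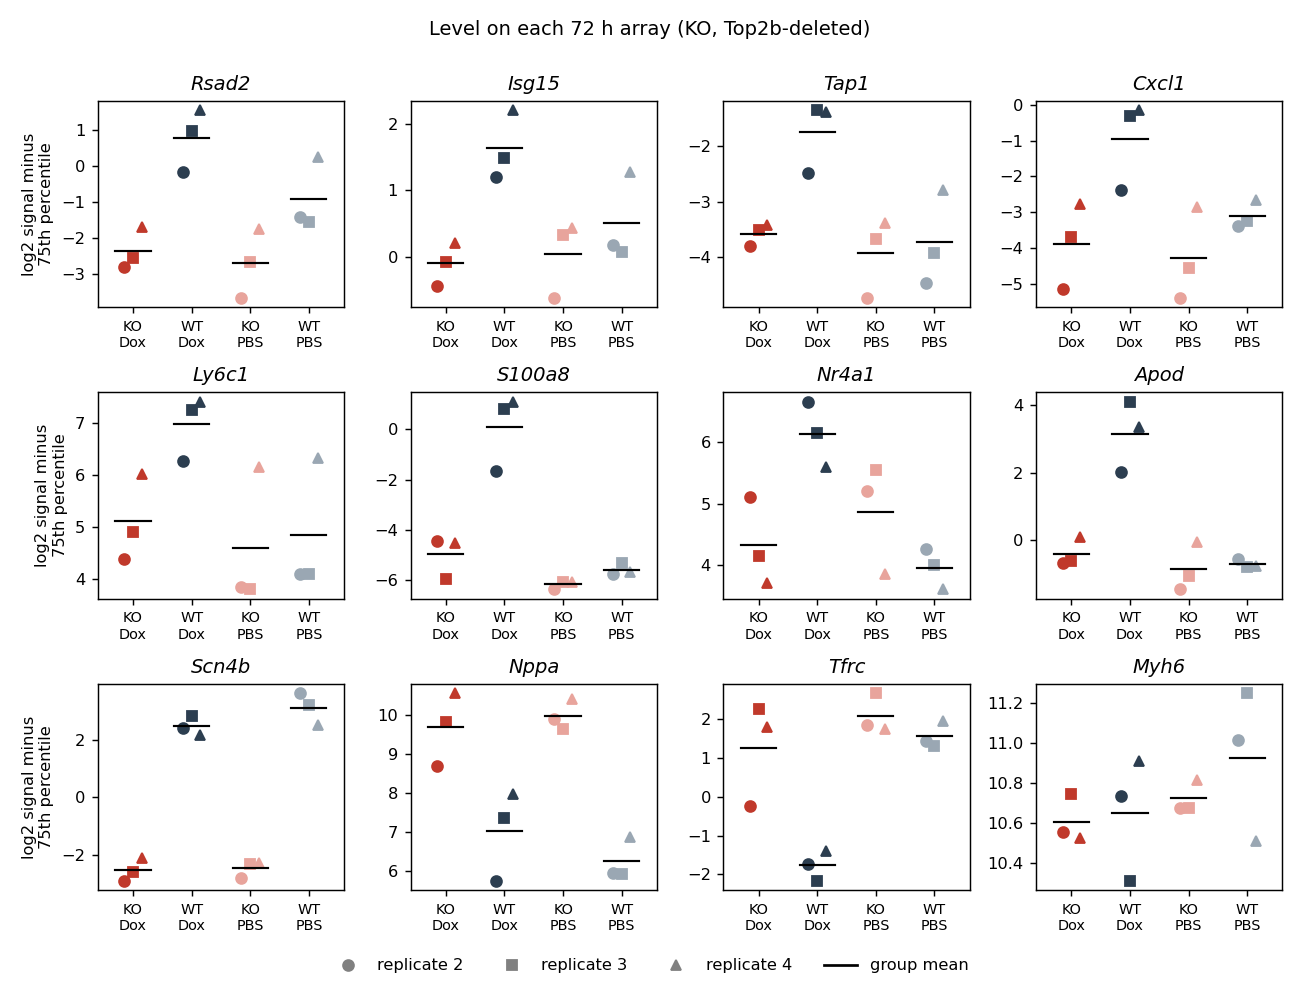
Level of 12 genes on each of the 12 arrays of 72 h (log2 signal minus the array's 75th percentile, vertical axis), with Top2b-deleted (KO) left of WT within Dox and within PBS, marker shape for the replicate and a line for the group mean. Rsad2, Isg15, Tap1, Cxcl1, Ly6c1, S100a8, Nr4a1 and Apod are lower on the 3 KO Dox arrays than on the 3 WT Dox arrays, Tfrc and Nppa are higher, and Myh6 overlaps.

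Inflammatory signals moved the same way. Among 22 cytokine and chemokine genes tested, 10 fell and 0 rose, beside 8.52% and 10.7% of all genes, with a median difference of -1.29, and the median in PBS was -0.05. Of the 22, 8 were kept only through the WT Dox arrays, and among the other 14 there were 5 falls (median -1.20). Cxcl1, a neutrophil-attracting chemokine, read -5.15, -3.71 and -2.78 in Top2b-deleted Dox cells, of which 1 array was above background, against -2.37, -0.32 and -0.15 in WT Dox cells, all above it. Nfkbia, the inhibitor and target of NF-kappa B, read 3.6, 3.26 and 3.92 in Top2b-deleted Dox cells, against 4.45, 4.59 and 5.03 in WT Dox cells. Neither gene overlapped between groups, and the differences were -2.93 ± 0.38 (limma, adjusted p = 0.00399) and -1.10 ± 0.16 (limma, adjusted p = 0.00604), with -1.19 and 0.30 in PBS. Il1r1, the receptor of interleukin 1 (-2.63), Icam1, the leukocyte adhesion molecule (-2.28), and Socs1, a feedback inhibitor of cytokine signalling (-1.12), also fell. The count was 2 without the block and 2, 2 and 4 without the pairs of replicates 2, 3 and 4, and with single Dox arrays left out it lay between 2 and 10.

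Acute phase and complement genes showed 8 falls and 0 rises among 20 tested, beside 8.52% and 10.7% of all genes, with a median of -1.36, and 0.07 in PBS. Without 3 members kept only through the WT Dox arrays there were 6 falls among 17. C3, the central complement protein, read 2.80, 2.47 and 3.72 in Top2b-deleted Dox cells, against 4.24, 5.48 and 5.05 in WT Dox cells. C4b read -0.91, -0.59 and 0.71 in Top2b-deleted Dox cells, against 0.56, 2.44 and 2.08 in WT Dox cells. C3 did not overlap, and C4b overlapped in 1 array. The differences were -1.92 ± 0.42 for C3 (limma, adjusted p = 0.0192) and -1.95 ± 0.34 for C4b (limma, adjusted p = 0.00944), and in PBS 0.04 and 0.99. Cfb (-1.83), C1ra (-1.76) and C1s (-1.49), proteases of the complement cascade, and Serpina3g (-3.52) fell as well. The count was 2 without the block and 3, 0 and 1 without the pairs of replicates 2, 3 and 4, and it lay between 4 and 9 with 1 Dox array left out.

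Markers of other cell types moved beside these groups, and in bulk RNA fewer cells of a type and less RNA per cell cannot be told apart. Of 6 neutrophil markers tested 4 fell and 0 rose, beside 8.52% and 10.7% of all genes. However, 3 of the 6 were kept only through the WT Dox arrays, where they are high. Of the other 3 only 1 fell (median -0.24), so the count of 4 is partly set by the filter. Mmp8, Mmp9, Cxcr2 and Ngp were not kept at 72 h. S100a8, a calcium-binding protein of neutrophils, was above background on no Top2b-deleted Dox array and on all WT Dox arrays, at -1.68, 0.82 and 1.11. It was at least 16.6-fold lower in Top2b-deleted Dox cells, and its PBS difference was -0.59. S100a9 (-4.28), Retnlg (-3.67) and Ly6g (-1.81) fell too. The summed level of the tested neutrophil markers was 8.02, 7.75 and 6.61 on the Top2b-deleted Dox arrays, against 7.85, 7.54 and 7.03 on the WT Dox arrays, so the sum, which other members dominate, overlapped. The count was 3 without the block and 3, 0 and 1 without the pairs of replicates 2, 3 and 4.

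Endothelial markers were lower almost as a set. Of 16 tested, 14 fell and 0 rose, beside 8.52% and 10.7% of all genes, with a median of -1.52 and of -0.22 in PBS, where 0 passed. Ly6c1 read 4.39, 4.90 and 6.03 in Top2b-deleted Dox cells, against 6.27, 7.26 and 7.42 in WT Dox cells. Cdh5, the cadherin of endothelial junctions, read 0.19, 0.86 and 2.00 in Top2b-deleted Dox cells, against 2.07, 2.86 and 2.90 in WT Dox cells. Both were lower on every Top2b-deleted Dox array, by 1.88 ± 0.37 for Ly6c1 (limma, adjusted p = 0.0141) and 1.60 ± 0.43 for Cdh5 (limma, adjusted p = 0.0366). Flt1, a receptor of vascular endothelial growth factor, fell by 1.84, the receptor Tie1 by 1.58, the fatty acid carrier Fabp4 by 1.98 and Pecam1 by 0.89. Claudin 5 (Cldn5) differed by -1.42 and did not pass (limma, adjusted p = 0.077), and Kdr by 0.01, with -1.77 on its second probe. The summed marker level was 6.82, 7.28 and 8.10 on the Top2b-deleted Dox arrays, against 8.54, 9.26 and 9.23 on the WT Dox arrays, without overlap. In PBS it was 6.79, 6.61 and 8.26 in Top2b-deleted cells, against 6.92, 6.92 and 8.74 in WT cells, and WT PBS replicate 4 lay above WT Dox replicate 2. The count is fragile: 0 members passed without the block, and 0, 0 and 9 passed without the pairs of replicates 2, 3 and 4. It was 3, 1 and 0 without Top2b-deleted replicates 2, 3 and 4, and 3, 2 and 14 without WT replicates 2, 3 and 4. The part of these cells in the interferon, MHC class I, cytokine and complement differences was not tested.

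Fibroblast markers showed 4 falls and 0 rises among 14 tested (median -0.41), beside 8.52% and 10.7% of all genes, with Dcn at -1.70, Ddr2 at -1.67, Gsn at -1.32 and Pdgfra at -1.29, while Col1a1 read -1.61, 1.68 and 2.37 in Top2b-deleted Dox cells, against -0.20, -0.46 and -0.48 in WT Dox cells. Their summed level was 4.64, 6.34 and 7.46 on the Top2b-deleted Dox arrays, against 6.70, 7.27 and 7.80 on the WT Dox arrays. Smooth muscle and pericyte markers showed 3 falls among 12 (median -0.36), namely Rgs5 (-1.71), Pdgfrb (-1.46) and Notch3 (-1.32), and Kcnj8 differed by -1.54 without passing. Their sums were 7.25, 7.80 and 7.40 in Top2b-deleted Dox cells, against 7.04, 7.08 and 7.30 in WT Dox cells. Of 17 macrophage markers 0 passed in either direction, though all 17 differences were negative (median -0.66), the 4 with the lowest p being C1qc (-1.19), C1qb (-0.97), Cd14 (-0.78) and Fcer1g (-0.72). Macrophage sums were 7.41, 7.39 and 6.83 in Top2b-deleted Dox cells, against 7.42, 7.63 and 5.90 in WT Dox cells.

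The remaining marker lists were thinly covered, and their counts are to be read against 10.7% of all genes that rose and 8.52% that fell. Of 5 lymphocyte markers tested 0 passed (median 0.15), with Cd4 at 0.20, Cd3e at 0.15, Nkg7 at 0.10 and Gzma at 0.52, and of 4 erythroid markers 0 passed (median 0.87), with Hbb-b1 at 1.18 ± 1.38, Hbb-b2 at 0.96, Hba-a1 at 0.78 and Slc4a1 at -0.40. Lymphocyte sums were 3.36, 3.86 and 3.48 in Top2b-deleted Dox cells, against 3.52, 3.42 and 3.28 in WT Dox cells. Among adipocyte markers Fabp4 and Retn were the 2 tested, and Adipoq, Lep and Plin1 were not kept. Retn differed by -0.89 without passing, and it was kept only through the WT Dox arrays. Schwann and mesothelial markers gave 1 rise and 1 fall among 9 (median -0.96). Of the 9, 3 were kept only through the WT Dox arrays, and the other 6 had 1 rise, 1 fall and a median of -0.29. Krt18 rose by 2.40 ± 0.35 and Sox10 fell by 1.47 ± 0.13, with 2.72 and -1.44 in PBS, while Krt8 (0.71) and Wt1 (-1.42) did not pass. Of 6 atrial markers 1 rose, Nppa, with Sln (-4.35), Myl4 (-1.0) and Dkk3 (-0.71) not passing and Bmp10 not kept.

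The labelled cell type held by its own markers. All 10 ventricular cardiomyocyte markers were measured, 2 rose and 0 fell, beside 10.7% and 8.52% of all genes, with a median difference of 0.23. Myh6, the main cardiac myosin heavy chain, read 10.55, 10.74 and 10.52 in Top2b-deleted Dox cells, against 10.73, 10.31 and 10.91 in WT Dox cells. Its groups overlapped and the difference was -0.05 ± 0.22, with a second probe at 1.08, so its probes disagree. Tnnt2, cardiac troponin T, differed by 0.09, cardiac actin Actc1 by 0.66 and phospholamban Pln by 0.36, and none of these 3 passed. The 2 that rose were Ckm (1.0) and Tnnc1 (1.01). The summed level was 13.17, 13.47 and 13.28 on the Top2b-deleted Dox arrays, against 13.28, 12.81 and 13.38 on the WT Dox arrays.

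Immediate early genes, transcribed within minutes of a stimulus, were lower under Dox and tended the other way in PBS. Of 22 tested 8 fell and 0 rose under Dox, beside 8.52% and 10.7% of all genes, with a median of -0.64. In PBS 3 rose and 0 fell, beside 2.33% and 2.21% of all genes, with a median of 0.55. Among the 21 members not kept through the WT Dox arrays alone, 7 fell under Dox. Nr4a1, an orphan nuclear receptor, read 5.11, 4.15 and 3.71 in Top2b-deleted Dox cells, against 6.65, 6.14 and 5.59 in WT Dox cells. Its groups did not overlap, with a difference of -1.8 ± 0.27 (limma, adjusted p = 0.00582) and 0.91 ± 0.27 in PBS, where the adjusted p was 0.102. Its relative Nr4a2 fell by 2.44, and the zinc finger factors Klf2 and Klf4 by 1.92 and 1.74. Of the 4 genes past the threshold in opposite directions in Dox and PBS, 3 fell under Dox and rose in PBS: Atf3 (-1.33 under Dox and 1.95 in PBS), Btg2 (-0.85 and 0.79) and Spsb2 (-0.81 and 0.70), an adaptor of a ubiquitin ligase, and the fourth was Aph1a (0.42 and -0.49), a subunit of gamma-secretase. The test of the difference between Dox and PBS gave all 4 an adjusted p of 0.218 (limma). The count of immediate early falls was 4 without the block and 0, 1 and 6 without the pairs of replicates 2, 3 and 4, and single Dox arrays left out gave 3 to 6.

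Glucocorticoid and fasting genes showed 7 falls and 0 rises among 25 tested, beside 8.52% and 10.7% of all genes, with a median of -0.33. Sgk1, a kinase induced by glucocorticoids, read 0.61, 0.35 and 2.20 in Top2b-deleted Dox cells, against 2.75, 3.80 and 3.54 in WT Dox cells. The groups did not overlap, with a difference of -2.31 ± 0.50 (limma, adjusted p = 0.0191) and 0.00 in PBS. Irs2, an insulin receptor substrate (-1.8), Cebpd (-1.29), Errfi1 (-1.14), Pdk4, which blocks pyruvate dehydrogenase (-1.30), and Per1 (-0.98) fell as well. The count was 3 without the block and 3, 0 and 3 without the pairs of replicates 2, 3 and 4.

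Targets of p53, the transcription factor of the DNA damage response, showed 9 falls and 0 rises among 34, beside 8.52% and 10.7% of all genes, with a median of -0.20. Among the 33 targets not kept through the WT Dox arrays alone, 8 fell. Fas, the death receptor, read 0.48, 0.75 and 1.60 in Top2b-deleted Dox cells, against 2.18, 2.67 and 2.72 in WT Dox cells. It did not overlap and fell by 1.58 ± 0.21 (limma, adjusted p = 0.00441), with -0.35 in PBS. Ephx1, an epoxide hydrolase (-2.38), Plk3 (-1.96), Phlda3 (-0.92), Trp53inp1 (-0.82) and Btg2 fell too. Cdkn1a, the cell cycle inhibitor p21, read 2.15, 1.29 and 1.67 in Top2b-deleted Dox cells, against 2.17, 3.36 and 3.25 in WT Dox cells, and its difference of -1.23 did not pass (limma, adjusted p = 0.0593). Bax, a pore-forming member of the BCL2 family, differed by -0.20, and Mdm2, the ligase that degrades p53, by 0.12. At 16 h, WT Dox and Top2b-deleted Dox arrays lie on different slides. There 19 of 34 p53 targets were lower and 0 higher, beside 14.4% and 16.9% of all genes, with a median of -0.82. The differences then were -1.40 for Bax, -0.84 for Mdm2 and -1.77 for Cdkn1a, all past the threshold in a fit without the slide. The 72 h count was 2 without the block and 1, 0 and 5 without the pairs of replicates 2, 3 and 4. Apoptosis regulators gave 0 calls in either direction among 27 (median -0.15), with Casp8 at -1.25, Birc3 at -0.89, Ripk1 at -0.79 and Bmf at -0.73.

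**Figure D4:**
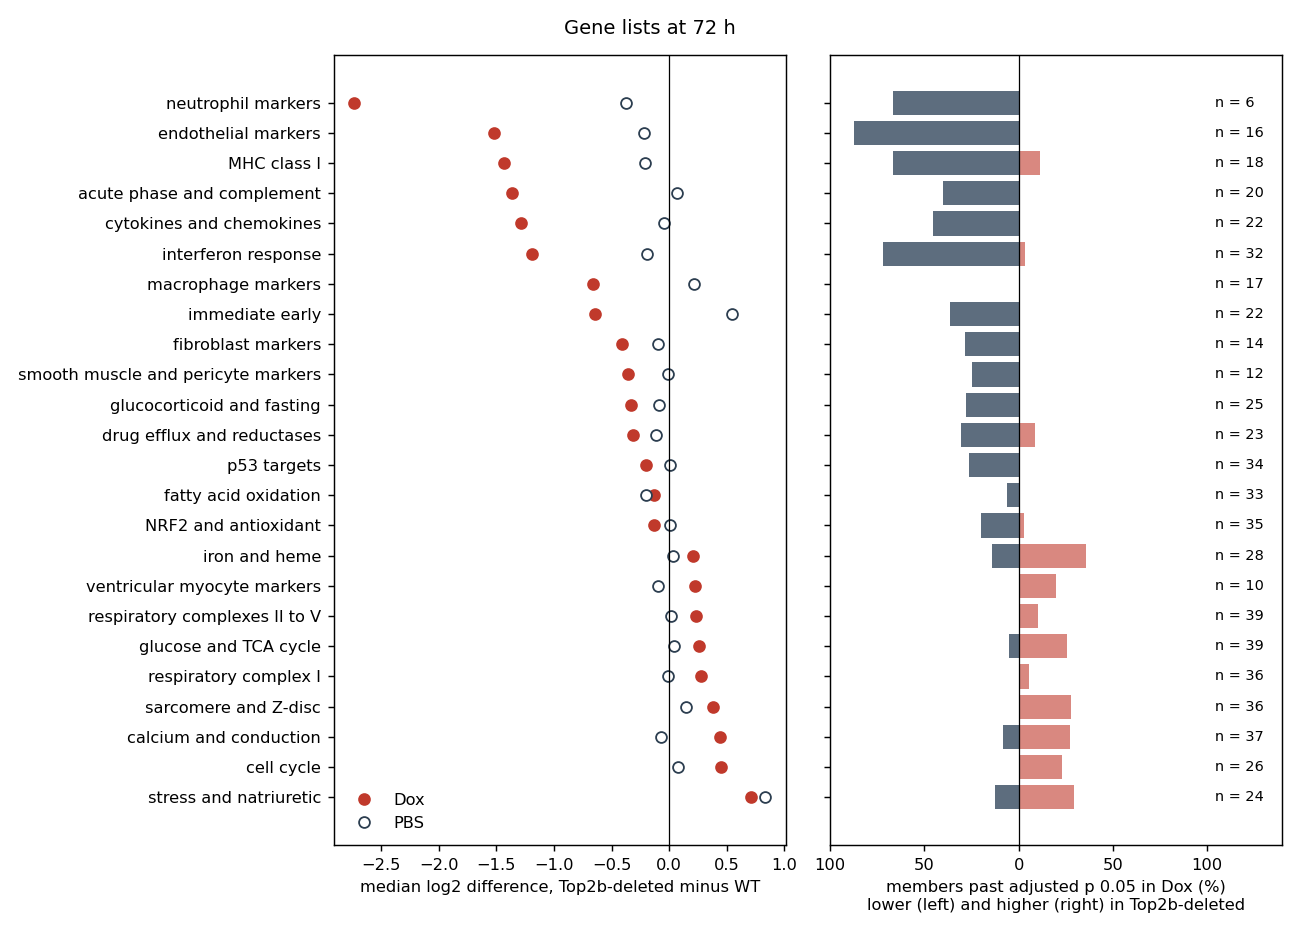
Median difference between Top2b-deleted and WT cells under Dox (filled) and in PBS (open) for 24 of the gene lists, left, and the share of tested members that were lower or higher past the threshold under Dox, right, with the number tested. Endothelial and interferon lists have the largest shares of falls, and no list of contractile or respiratory genes has a median below 0.

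Genes of the contractile machinery and of excitation tended upward. Among 36 sarcomere and Z-disc genes 10 rose and 0 fell, beside 10.7% and 8.52% of all genes, with a median of 0.38 and of 0.14 in PBS. Acta1, skeletal muscle actin, which stressed hearts re-express, read 4.54, 7.71 and 7.35 in Top2b-deleted Dox cells, against 3.33, 3.45 and 5.20 in WT Dox cells. The groups overlapped in 1 array each, and the difference was 2.54 ± 0.60 (limma, adjusted p = 0.0245), with 1.59 in PBS. Mybpc2, the fast skeletal form of myosin-binding protein C, rose by 1.8 and Tnni1, slow skeletal troponin I, by 1.37, and both also passed in PBS at 1.59 and 2.56. Smaller rises were those of Tnnc1, Nrap (0.89), Fhl1 (0.75), Synpo2l (0.61) and Myoz2 (0.58), the last of which differed by 0.63 in PBS. The count was 2 without the block and 1, 0 and 3 without the pairs of replicates 2, 3 and 4.

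Calcium handling and conduction genes gave 10 rises and 3 falls among 37, beside 10.7% and 8.52% of all genes, with a median of 0.44 and of -0.07 in PBS. Kcnd2, a channel of the transient outward potassium current, read 2.01, 2.22 and 2.27 in Top2b-deleted Dox cells, against 1.60, 0.42 and 0.97 in WT Dox cells. It did not overlap and rose by 1.17 ± 0.24 (limma, adjusted p = 0.0157), with -0.12 in PBS. Its partner Kcnip2 rose by 0.93, the gap junction gene Gja1 by 0.79, the calcium release channel Ryr2 by 0.63 and the L-type channel Cacna1c by 0.52. Scn4b fell, as above, and so did Kcna5, an ultrarapid potassium channel (-1.69). The count of rises was 4 without the block and 5, 0 and 3 without the pairs of replicates 2, 3 and 4, and 15 with arrays centred on their medians.

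Stress and natriuretic genes had a median of 0.71, with 7 rises and 3 falls among 24, beside 10.7% and 8.52% of all genes. In PBS the median was 0.84 with 5 rises, beside 2.33% of all genes. Among the 22 members not kept through 1 Dox group alone, 7 rose and 2 fell under Dox. Nppa, atrial natriuretic peptide (mm9 chr4:147376024-147376083, plus strand), read 8.69, 9.81 and 10.55 in Top2b-deleted Dox cells, against 5.76, 7.37 and 7.98 in WT Dox cells. In PBS it averaged 9.98 ± 0.39 in Top2b-deleted cells and 6.25 ± 0.54 in WT cells (SD, n = 3 each). Nppa was higher with the deletion in both treatments, by 2.65 ± 0.35 under Dox (limma, adjusted p = 0.00414). Itgb1bp3, a nicotinamide riboside kinase, rose by 1.93 with 1.25 in PBS. Npr3, the clearance receptor of natriuretic peptides, fell by 2.24 with -0.46 in PBS. Fgf21, a hormone of fasting and mitochondrial stress, was above background on no Top2b-deleted Dox array and on all 3 WT Dox arrays, at -0.75, -3.63 and -3.22, and was at least 2.71-fold lower. The count of rises was 4 without the block and 4, 1 and 5 without the pairs of replicates 2, 3 and 4.

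Among cardiac transcription factors 5 of 19 rose and 2 fell, beside 10.7% and 8.52% of all genes, with a median of 0.24. Srf (0.79), its partner Myocd (1.0) and Nkx2-5 (0.74) rose, with 0.34, 0.43 and 0.29 in PBS, and Tbx3, a repressor of the working-muscle programme in conduction tissue, fell by 1.58.

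Glucose and TCA cycle genes gave 10 rises and 2 falls among 39, beside 10.7% and 8.52% of all genes, with a median of 0.26 and of 0.04 in PBS. Hk2, which traps glucose in the cell, read 4.96, 4.64 and 4.22 in Top2b-deleted Dox cells, against 4.46, 2.96 and 3.57 in WT Dox cells. Citrate synthase, Cs, read 8.86, 8.87 and 8.88 in Top2b-deleted Dox cells, against 8.65, 8.16 and 8.29 in WT Dox cells. Cs did not overlap and Hk2 did. The rises were 0.94 ± 0.25 for Hk2 (limma, adjusted p = 0.0331) and 0.51 ± 0.13 for Cs (limma, adjusted p = 0.0296), with -0.36 and 0.06 in PBS. Pgam2 (0.94), Ldha (0.73), Pgk1 (0.70) and Idh3a (0.62) rose, and Pfkfb3, the activator of glycolysis by fructose 2,6-bisphosphate, fell by 2.18. The count of rises was 2 without the block and 2, 0 and 0 without the pairs of replicates 2, 3 and 4, and it was 16 with normexp background correction.

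Respiratory chain genes gave few calls. Complex I gave 2 rises and 0 falls among 36, with 33 differences positive and a median of 0.27, led by Ndufs5 (0.75) and Ndufb5 (0.48), and Ndufs8 and Ndufb2 (0.54 and 0.56) did not pass. Complexes II to V gave 4 rises among 39, with 38 positive and a median of 0.24: Uqcrc1 (0.58), Atp5f1 (0.49), Cox5b (0.45) and Atp5d (0.44). These shares of rises are at or below the 10.7% of all genes, and 57.9% of all differences were positive. The summed complex I level was 13.35, 13.46 and 13.54 in Top2b-deleted Dox cells, against 13.35, 12.85 and 13.39 in WT Dox cells, and that of complexes II to V 14.06, 14.15 and 14.20 in Top2b-deleted Dox cells, against 14.07, 13.59 and 14.14 in WT Dox cells. In both sums WT Dox replicate 3 alone stood apart. Regulators of mitochondrial biogenesis gave 3 rises among 32 (median 0.26), namely Ppargc1b (0.89), Park2 (0.66) and Esrrg (0.43), while the coactivator Ppargc1a (0.50), the mitochondrial DNA packaging factor Tfam (0.48) and the deacetylase Sirt3 (0.62) did not pass. Fatty acid oxidation gave 0 rises and 2 falls among 33 (median -0.13, 21 of 33 negative), a share of falls under the 8.52% of all genes: Cd36, the fatty acid transporter, at -0.75 and Pdk4, and Cpt1b differed by -0.36 without passing.

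Iron and heme genes changed in both directions, with 10 rises and 4 falls among 28, beside 10.7% and 8.52% of all genes, and a median of 0.21. With 1 member kept only through the WT Dox arrays left out, 10 rose and 3 fell among 27. Beside Tfrc, rises were seen for Alas1, the first enzyme of heme synthesis (1.11), Slc39a14, a metal transporter (0.79), and Ireb2, which senses iron (0.75). Ftl1, ferritin light chain, read 7.11, 5.36 and 5.74 in Top2b-deleted Dox cells, against 7.43, 8.22 and 7.73 in WT Dox cells. It did not overlap and fell by 1.72 ± 0.40 (limma, adjusted p = 0.0236), with -0.88 in PBS. Trf, transferrin, fell by 1.68 and Steap4, a metalloreductase, by 1.72. The count of rises was 7 without the block and 2, 0 and 1 without the pairs of replicates 2, 3 and 4.

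Antioxidant genes under NRF2 gave 1 rise and 7 falls among 35 (median -0.13), beside 10.7% and 8.52% of all genes. Gsta1 read 0.66, -0.86 and -0.55 in Top2b-deleted Dox cells, against 3.47, 4.86 and 2.88 in WT Dox cells. It did not overlap and fell by 3.98 ± 0.50 (limma, adjusted p = 0.00326), with -2.04 ± 0.50 in PBS (adjusted p = 0.0602). Gsta2 (-4.36), Gsta3 (-2.46) and Gsta4 (-0.82) fell too. These glutathione transferases are close copies, so their probes may share signal. Sod3, extracellular superoxide dismutase, fell by 1.23 with -1.46 in PBS. Among drug efflux pumps and reductases, which handle Dox itself, 7 fell and 2 rose of 23 (median -0.31), beside the same shares of all genes. With 2 members kept only through the WT Dox arrays left out, 6 of 21 fell. Abcb1a, which encodes P-glycoprotein in mice together with Abcb1b, read -1.33, -0.84 and -0.52 in Top2b-deleted Dox cells, against 0.78, 1.19 and 1.63 in WT Dox cells. It did not overlap and fell by 2.10 ± 0.32 (limma, adjusted p = 0.00636), with -0.24 in PBS, and Abcb1b fell by 1.61 with 0.33 in PBS. The carbonyl reductase Cbr3 (-1.57), Aldh1a1 (-1.8), Xdh (-1.67), Cyp1b1 (-3.24) and Nos3 (-1.47) also fell. Nos3 and Abcb1a are expressed by endothelial cells, whose markers fell beside them, and the part of those cells in these falls was not tested. The antioxidant falls numbered 4 without the block and 5, 3 and 4 without the pairs of replicates 2, 3 and 4, and the efflux falls 1 without the block and 0, 0 and 5.

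Cell cycle genes gave 6 rises and 0 falls among 26 tested of 41 listed, beside 10.7% and 8.52% of all genes, with a median of 0.45. Among the 24 of them not kept through 1 Dox group alone, 6 rose and 0 fell. Plk1, a mitotic kinase, read -1.66, -2.01 and -1.54 in Top2b-deleted Dox cells, against -2.63, -2.66 and -3.22 in WT Dox cells. It did not overlap and rose by 1.10 ± 0.19 (limma, adjusted p = 0.00975), with 0.04 in PBS. Ccnb2, the mitotic cyclin B2, was above background on all Top2b-deleted Dox arrays and on no WT Dox array, and was at least 2.50-fold higher. Rrm2, a subunit of ribonucleotide reductase (0.96), Cdk2 (0.75) and Tk1 (0.62) rose. DNA repair genes gave 5 rises and 2 falls among 31 (median 0.16), few calls that lie near the shares of all genes. Trp53bp1 (0.53), Polb (0.52) and Rnf168 (0.44) rose.

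The other lists held few calls, to be read against 10.7% of all genes that rose and 8.52% that fell. Heat shock genes gave 4 rises among 22 (median 0.33), Hspe1 (0.57), Hspa9 (0.48), Hspa4 (0.43) and their regulator Hsf1 (0.43). Ribosome biogenesis genes gave 6 rises among 39 (median 0.30), with Polr1e at 1.09 and 1.11 in PBS, and Nle1 (0.58), Fbl (0.53) and Rrp9 (0.38). The integrated stress and unfolded protein list gave 0 rises and 3 falls among 35 (median -0.04), a share of falls near that of all genes: Fgf21, Atf3 and Trib3 (-1.91), with Phgdh at -1.54 not passing. With 1 member kept only through the WT Dox arrays left out, 2 of 34 fell. Ubiquitin, atrophy and autophagy genes gave 6 rises and 2 falls among 33 (median 0.05), with the muscle ligases Trim63 (0.83) and Trim55 (0.71) and Atg4b (0.39) up and Atg7 (-0.67) down. Circadian clock genes gave 2 falls among 17 (median 0.06), Per1 and Nr1d2 (-0.61), and Arntl (-1.19) and Bhlhe40 (0.51) did not pass. Matrix and remodelling genes gave 5 falls among 34 (median -0.07), among them Mmp3, Thbs2 (-2.52), Thbs1 (-1.55) and Timp4 (-1.50). Among the 31 of them not kept through 1 Dox group alone, 4 fell. Growth factor signalling gave 6 rises and 6 falls among 33 (median 0.10). The activin antagonist Fst (1.65) and activin A subunit Inhba (1.15) rose, with 2.22 and 2.72 in PBS, Vegfa rose by 1.08 with 0.00 in PBS, and Bmp6 (-2.39), Nrg4 (-1.64), Igfbp4 (-1.51) and Bmp4 (-1.43) fell.

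Some genes crossed the detection limit between groups. Of the 3776 genes past the threshold, 54 were above background on all Top2b-deleted Dox arrays and on no WT Dox array, and 97 the reverse. A gene could be kept through its brighter group alone, so no direction is read from these counts. Casq1, skeletal calsequestrin, read -0.63, 0.90 and -0.50 in Top2b-deleted Dox cells, and was at least 12.9-fold higher than in WT Dox cells, with a PBS difference of 3.62. Olfr224, Tceal5 and Lpar3 were at least 7.35-fold, 7.13-fold and 4.64-fold higher and passed in PBS too. Mmp3, the matrix metalloproteinase stromelysin 1, read -2.64, 0.90 and -0.57 in WT Dox cells and was at least 9.19-fold lower in Top2b-deleted Dox cells, with a PBS difference of -0.13. Ogdhl and Cdhr3 were at least 10.7-fold and 6.85-fold lower and passed in PBS.

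At 16 h the same genotype comparison under Dox gave 5875 of 18751 genes past the threshold (31.3%), 3176 higher (16.9%) and 2699 lower (14.4%), in a fit without a block. At 16 h 2 slides were used, with WT Dox on 1 and Top2b-deleted Dox on the other, and a fit that blocked on the slide left 406 genes. The genotype field of 4 arrays of 16 h goes against their titles, 1 of them in each Dox group, and the titles were followed. Of 3527 genes called at 72 h and tested at 16 h, 1569 were called in the same direction at both, which is 44.5% of the 72 h calls and 27.5% of the 16 h calls. For interferon genes 27 of 32 were lower at 16 h with a median of -2.03, and for endothelial markers 10 of 16 with -1.06. Some other lists with falls at 72 h did not repeat them. Of 14 fibroblast markers 7 were higher and 0 lower at 16 h (median 1.33), and of 32 matrix and remodelling genes 16 were higher and 3 lower (median 0.62). Of 22 immediate early genes 4 were higher and 3 lower (median -0.12). Each time has its own slides, so time and slide cannot be told apart.

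Genes close to Top2b on chromosome 14 were counted separately. Within 10 Mb of the Top2b probe 31 of 129 genes passed under Dox (24.0%), beside 19.2% of all genes. Of these, 5 passed in the same direction in PBS, Top2b itself among them. They were 3.88% of the genes in the window, beside 3.20% of all genes.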

How the data were processed

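RNA of each sample, 100 ng per the labels' protocols, was labelled with Cy3 and hybridised alone to an Agilent mouse array. Each array has a scanner file from Agilent Feature Extraction 10.7.3.1 with probe positions in mm9, per the file headers. The deposited intensity used here is the processed signal, corrected for background and not normalized between arrays, per the file headers. The authors also deposited a value table, whose values are a ratio, the processed signal over the array's median, as found by setting both side by side. Raw mean and background intensity columns served as an alternative.

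Outlier spots were set to missing (93 tested genes lack an array), log2 was taken, and the 75th percentile of non-control spots was subtracted. A probe was kept when all 3 arrays of any of the 4 groups of 72 h had it well above background, out of 55681 probes, and the brightest of a gene's kept probes stood for it, which gave 19672 genes. In R 4.3.3, limma 3.58.1 was fitted to the 12 arrays of 72 h with the replicate number as a fixed block, leaving 6 residual degrees of freedom, with Benjamini-Hochberg adjustment over all genes. Arrays of one number share a slide (replicates 2 and 3 on one, 4 on the other). The pairs follow the numbers in the titles, as the comparison was defined. Same-numbered Dox arrays deviated together from their group means (correlations of 0.26, 0.17 and 0.35), as did PBS arrays (0.37, 0.35 and 0.55). The 12 arrays of 16 h were fitted without a block. The fit was tested on simulated data. The number of arrays limits the precision.

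The members and the gene lists (31 of pathways and 11 of cell type markers) were chosen with earlier results of these data known, and a list is described by its counts beside the same over all genes. Genes were named by rule: the 15 largest rises and falls measured on every Dox array without overlap, up to 5 bounded genes each way, the topoisomerases, Tdp1, Tdp2 and Esr1, and from each list the 4 genes of lowest p. Unannotated names were skipped (5 rises and 29 falls). Any further gene was picked with its values in view. Some genes that the rule or the lists name are not reported here. A fold bound compares the mean of the bright group with the detection limit of each dim array, taken as its faintest detected probe or the gene's own signal, whichever is higher. Gene names are those of the array files. Alternatives were other scalings, filters, background corrections, blocks and left-out arrays.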

Additional observations from a re-analysis of the deposited data

Results flagged for a closer look

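Among 187 named genes tested at both times, 86 separated the genotypes without overlap under Dox at 72 h and at 16 h. Many of the 187 were named for a lack of overlap or a low p at 72 h, so no result is read from that count. Groups did not overlap for 26.6% of all genes at 72 h, and the share over all genes at both times was not computed. Of the 86, 4 lay in opposite directions. Fgf21 differed by -3.71 at 72 h, a fitted value since no Top2b-deleted Dox array was above background there, and by 1.67 at 16 h. Echs1, an enzyme of fatty acid oxidation, differed by 0.37 at 72 h and by -0.34 at 16 h. Nle1, a ribosome assembly factor, differed by 0.58 at 72 h and by -0.26 at 16 h. Ckm, muscle creatine kinase, differed by 1.0 at 72 h and by -0.33 at 16 h. At 72 h the adjusted p from limma was 0.00975 for Fgf21, 0.0893 for Echs1, 0.0346 for Nle1 and 0.0189 for Ckm, and at 16 h none of the 4 passed. The difference between the times was not tested, since each time has its own slides.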

How the results depend on the processing

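The Dox count of 3776 genes became 1554 without the replicate block and 1714 without the filter on dim probes. It became 768 and 524 with only the 6 Dox arrays, with and without the block, 1197 within the slide of replicates 2 and 3, and 243 to 3085 with 1 pair or 1 Dox array left out. Of the 1554 genes called without the block, all 1554 were among the 3776. With normexp, quantile, median scaling, the slide as a block, mean probes, outlier spots kept or array weights it lay between 3220 and 4341. The PBS count of 893 became 418 without the block, 372 without the filter, 202 without the 2 PBS arrays with Ddx3y signal, and 72 to 584 with 1 pair left out. The test between both genotype effects gave 1 gene with probes required on all 12 arrays, and 0 otherwise. The 16 h count of 5875 became 406 with the slide as a block and 5598 with the replicate block.

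The Top2b difference kept its sign and missed the threshold at -0.74 without the block, without the filter or with only the 6 Dox arrays, at -0.64 with median scaling and at -0.51 within the slide of replicates 2 and 3. Over left-out pairs and arrays it was -0.93 to -0.51, and it still passed without Top2b-deleted replicate 2 or WT replicate 2 alone (limma, adjusted p of 0.0189 and 0.0456). The cause of these changes was not tested. No named gene past the threshold reversed under any alternative. Of the named genes that did not pass, some changed sign. Kdr was at -0.14 with quantile scaling and -0.88 with averaged probes, Mdm2 at -0.030 with quantile scaling, and Myh6 at 0.050 with median scaling, 0.52 with averaged probes and 0.13 within the slide of replicates 2 and 3. Within that slide Gzma was at -0.032, Hba-a1 at -0.67, Hbb-b1 at -0.95 and Hbb-b2 at -0.72. Over left-out pairs and arrays the ranges were -0.15 to 0.38 for Cd3e, -0.032 to 0.80 for Gzma, -0.67 to 2.33 for Hba-a1, -0.95 to 3.18 for Hbb-b1, -0.72 to 2.65 for Hbb-b2, -0.16 to 0.23 for Nkg7, -0.27 to 0.26 for Kdr, -0.29 to 0.15 for Myh6 and -0.026 to 0.18 for Tnnt2. Leaving out the repeat probes and the Ddx3y arrays was chosen after seeing the data.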

Other observations

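Genes past the threshold in the same direction under Dox and in PBS were uneven along the genome. On chromosome 8 they were 77 of 1062 genes tested (7.25%), against 3.20% of all genes. Of 256 windows of 10 Mb with at least 20 genes the median share was 2.63%, and 48 windows held none. The share was 18.6% (13 of 70 genes) at 40 to 50 Mb and 18% (27 of 150) at 70 to 80 Mb of chromosome 8, and 14.8% (22 of 149) at 140 to 150 Mb of chromosome 4. Top2b is on chromosome 14, where the window around it is given with the other results. The windows were singled out after their values were seen, and no test was made.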
